A study of Saccharomyces cerevisiae with 24 samples.

Results

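The genes described here encode cohesin, its regulators and its loader in budding yeast (Saccharomyces cerevisiae). They were chosen by systematic name: SMC1 (YFL008W), SMC3 (YJL074C), MCD1 (YDL003W), IRR1 (YIL026C), PDS5 (YMR076C), RAD61 (YDR014W), SCC2 (YDR180W), SCC4 (YER147C) and ECO1 (YFR027W). These are 9 of the 7218 features in the deposited table. The rule used no measured value, but earlier results of these data were known when the members were chosen. RNA was sequenced from 24 libraries of MAT a cells of the W303-1A background, cultured at 25°C. The control strain carried 3 Pk epitopes on Ycg1, a subunit of condensin. In the second strain, Ycg1Degron1, YCG1 was placed behind the methionine-repressible MET3 promoter, its product carried 3PK and 3miniAID tags, and OsTIR1-9Myc was expressed from the ADH1 promoter. For the G1 sample, cells were held with the pheromone α-factor for 1.5 h in medium without methionine, and then for 2 h in rich YPD medium with auxin (IAA) at 88 μg/ml. The M sample came from cells released into fresh YPD with auxin and nocodazole, a microtubule poison that holds cells in mitosis, and was taken 2 h later. Control cells received the same medium change and auxin, so every library had both. M cells had therefore passed S phase and were collected later than the G1 cells. Each RNA was made into a polyA library and a total RNA library, and the labels give 6 libraries to each of the 4 combinations of arrest and library type. Column headers add a code, 14 or 18, with 3 replicates for each code in each combination. No sample label explains this code, so it is used below as a name only, and no strain is assigned to it.

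Cohesin is a ring-shaped protein complex that encircles DNA and holds sister chromatids together from S phase until anaphase. Smc1 and Smc3 are long coiled-coil ATPases, and the kleisin Mcd1 (also called Scc1) closes the ring and is cut by separase at anaphase. Irr1 (Scc3) and Pds5 bind the kleisin. Rad61, the yeast Wapl protein, promotes release of the ring from DNA. Scc2 and Scc4 form the loader, and the acetyltransferase Eco1 modifies Smc3 during S phase so that cohesion becomes stable. Many genes needed for DNA replication are transcribed in a burst in late G1, when the factor MBF acts through a promoter element called the MluI cell cycle box (MCB). The related factor SBF acts through the Swi4 cell cycle box (SCB). In the pheromone arrest, cells are held before this burst.

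The promoters of the members differed in these elements. Stretches are shown for every member that holds an MCB. The 500 bases before each start codon were searched for ACGCGT (MCB) and CGCGAAA (SCB), each on either strand. Sequences are from the RefSeq genome, build R64, and are written 5′ to 3′ on the strand of the gene, with every MCB in capitals.
SMC1: aaagtatcaataACGCGTaaagtgaataga
SMC3: ggaaaagacgcgACGCGTtaggaaatgatt
MCD1: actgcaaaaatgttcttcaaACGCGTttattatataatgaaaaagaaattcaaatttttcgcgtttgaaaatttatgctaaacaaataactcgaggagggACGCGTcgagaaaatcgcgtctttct
IRR1: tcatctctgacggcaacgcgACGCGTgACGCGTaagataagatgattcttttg
PDS5: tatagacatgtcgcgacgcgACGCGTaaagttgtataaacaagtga
ECO1: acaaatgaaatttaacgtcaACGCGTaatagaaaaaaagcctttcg

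These stretches lie upstream of the coding regions, at chrVI:119295-119324 for SMC1 (plus strand) and chrX:302949-302978 for SMC3 (minus strand). That of MCD1 is at chrIV:444291-444416 (plus strand) and that of IRR1 at chrIX:308032-308084 (minus strand). The PDS5 stretch is at chrXIII:420172-420217 (minus strand), and the ECO1 stretch is at chrVI:207298-207343 (plus strand). MCD1 and IRR1 each held 2 MCBs, and the other 4 held 1. The MCBs of MCD1 began 372 and 292 bases before its start codon, whereas those of IRR1 were 135 and 128 bases before it. An MCB was found in 6 of the 9 members (66.7%) and in 5.43% of the 6006 windows of this length in the genome. RAD61, SCC2 and SCC4 held none in the window. An SCB was found in MCD1, SCC2 and ECO1, 3 of 9 members (33.3%), against 5.81% of all windows, and none of its matches overlapped an MCB. A match describes the letters only and is not evidence that a factor binds there.

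The libraries held between 10282599 and 22171825 expected counts with polyA selection, of which 4544 to 16619 per library fell on the 9 members. Total RNA libraries held 13932410 to 21650543 counts, but 95.5 to 96% of these were ribosomal RNA, and the members received only 252 to 766 counts per library. Levels are given as CPM, the usual scaling of counts to a fixed library size, here without ribosomal RNA and spike-ins and with TMM factors, and a gene is called where edgeR's quasi-likelihood test gave an adjusted p under 0.05. The arrest markers followed the labels in both codes: the pheromone-induced genes FUS1, FIG1, AGA1 and SST2 were lower in M in 4 of 4 cases, and the mitotic genes CLB1, CLB2, CDC20 and SWI5 were higher in 4 of 4. YCG1, the gene altered in the second strain, had 14.4 to 20.7 CPM in the 6 polyA libraries of code 14 and 75.7 to 107.9 CPM in those of code 18. With polyA selection, 2 of the 5 condensin genes, a list that holds YCG1, were called higher in code 18 in G1, with 7.53% of genes called higher. In M it was 1 of the 5, with 6.41% of genes called higher. The differences of the 5 ran from 0.124 to 2.527 in G1 and from -0.319 to 2.304 in M, on the log2 scale. In G1 total RNA, 0 of the 5 were called between the codes, with 8.61% of genes called. Their differences there ran from 0.096 to 0.584 on the log2 scale. In M total RNA they ran from -0.307 to 1.561, and 1 of the 5 was called higher, with 1.71% of genes called higher. These values were not used to name the codes.

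One culture stood apart in the genes looked at here. The share of all genes that were highest or lowest in it is not given, so the counts below describe these genes alone. In G1 polyA libraries, code 18 replicate 3 held the highest level of 7 of the 9 members among the 6 G1 libraries, and of 5 of the 9 among all 12 polyA libraries. Genes of late G1 were looked at beside it, as a list added after this library was seen. All 8 of them (CLN1, CLN2, CLB5, CLB6, RNR1, POL1, CDC21 and RFA1) were highest of the 6 G1 libraries in the same culture. RNR1, the large subunit of ribonucleotide reductase, reached 628 CPM there and 67.6 to 284 CPM in the other G1 libraries. The summed level of the late G1 genes was 1549 CPM in this library, 763.8 and 495.1 CPM in the other code 18 G1 libraries, and 316.2 to 367.7 CPM in code 14. The 4 pheromone-induced genes were all at their lowest of the G1 libraries there, summing to 5227 CPM against 7851 to 9862 CPM in the others. The total RNA library of the same culture stood apart as well, being highest of 6 for 7 of 9 members and 8 of 8 late G1 genes and lowest for 4 of 4 pheromone-induced genes. The main member fits that rest on this culture are therefore given with and without it. The part of these genes in the members' differences was not tested. In bulk RNA, a higher share of cells that express a gene cannot be told apart from more of its RNA per cell.

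**Figure D1:**
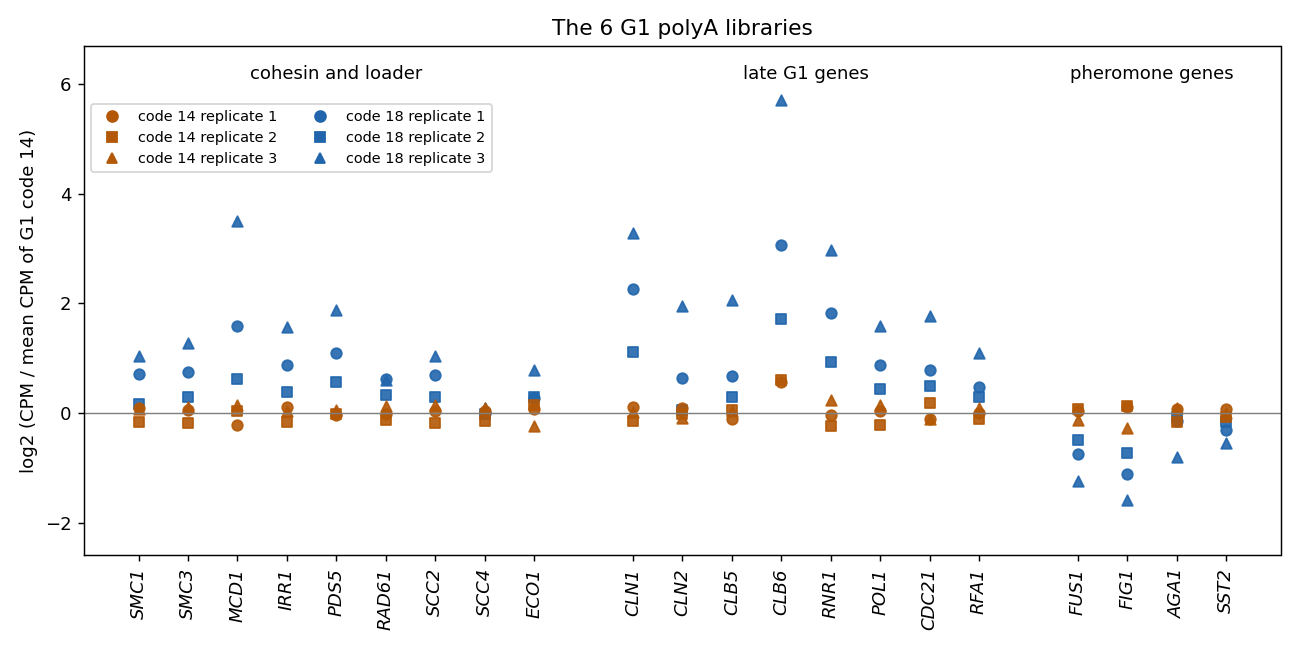
Level of each gene in each of the 6 G1 polyA libraries, as log2 of its CPM over the mean CPM of the 3 code 14 libraries (y axis), for the members, the 8 late G1 genes and the 4 pheromone-induced genes (x axis). CLB6 was at 0 in code 14 replicate 3 and has no point for it. Code 18 replicate 3 (blue triangles) is the highest G1 library for 7 of 9 members and 8 of 8 late G1 genes, and the lowest for 4 of 4 pheromone-induced genes. The share of all genes highest or lowest in it is not given. The late G1 list was added after this library was seen.

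Cohesin transcripts were higher in mitotic than in G1 arrest in the libraries of code 14. With polyA selection, 8 of the 9 members were called higher in M, where 19.1% of the 5832 genes tested were called higher. The median difference over the members was 0.91 on the log2 scale, against 0.01 over all genes tested. For all 9 members, the 3 M libraries lay above the 3 G1 libraries without overlap, which was so for 24.7% of genes. The largest difference was that of the kleisin MCD1. Its level was 8.63, 10.3 and 11.1 CPM in G1 and 73.0, 85.3 and 40.0 CPM in M. The G1 libraries of code 14 were thus close together, and the third M library was the lowest of the M libraries but still far above them. The fitted difference was 6.61-fold (log2 2.72 ± 0.59 SE, adjusted p = 0.00321, edgeR).

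The SMC subunits had smaller fitted differences. SMC1 measured 128, 107 and 126 CPM in G1 and 239, 245 and 192 CPM in M, a 1.88-fold difference (log2 0.91 ± 0.18 SE, adjusted p = 0.00194, edgeR). Its partner SMC3 had 75.7, 64.0 and 78.5 CPM in G1 and 178, 171 and 154 CPM in M, or 2.30-fold (log2 1.21 ± 0.19 SE, adjusted p = 0.00048, edgeR). The differences of the kleisin-binding subunits lay between these and that of MCD1. IRR1 had 70.1, 58.4 and 67.3 CPM in G1 and 165, 173 and 139 CPM in M, which is 2.44-fold (log2 1.29 ± 0.23 SE, adjusted p = 0.000867, edgeR). PDS5 had closely spaced G1 values of 46.0, 46.6 and 48.7 CPM, and 148, 159 and 112 CPM in M. Its difference was 2.96-fold (log2 1.57 ± 0.25 SE, adjusted p = 0.000502, edgeR).

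The release factor, the loader and the acetyltransferase had smaller fitted differences still. RAD61 was at 23.8, 22.02 and 26.3 CPM in G1 and 35.0, 37.9 and 33.9 CPM in M (log2 0.57 ± 0.12 SE, adjusted p = 0.00271, edgeR). SCC2, the large loader subunit, had 74.2, 63.9 and 80.1 CPM in G1 against 127, 113 and 112 CPM in M (log2 0.69 ± 0.15 SE, adjusted p = 0.00326, edgeR). The smaller loader subunit SCC4 was the member that was not called. It measured 32.0, 28.5 and 33.6 CPM in G1 and 34.6, 35.5 and 39.5 CPM in M, with a difference of 0.22 ± 0.10 SE on the log2 scale (adjusted p = 0.0862, edgeR). Its M libraries all lay above its G1 libraries, but the highest G1 and the lowest M value were close. ECO1 had 9.22, 9.73 and 7.48 CPM in G1 and 12.2, 16.9 and 15.8 CPM in M (log2 0.76 ± 0.17 SE, adjusted p = 0.00505, edgeR). These 8 calls were made in each of the 12 fits that left out 1 library. The third M library of code 14 was the lowest of the 3 for 7 of the 9 members. Its summed late G1 genes were also lower, at 683.8 CPM against 1061 and 1057 CPM, and their part in the members' values was not tested. Of the 8 late G1 genes, 7 were called higher in M in code 14, where 19.1% of genes were called higher. In code 18, 0 were called higher and 2 lower, with 18.8% of genes called in each direction. When G1 code 18 replicate 3 was left out, 4 of the 8 were called higher and 0 lower in code 18, with 16% of genes called higher and 15.6% lower.

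**Figure D2:**
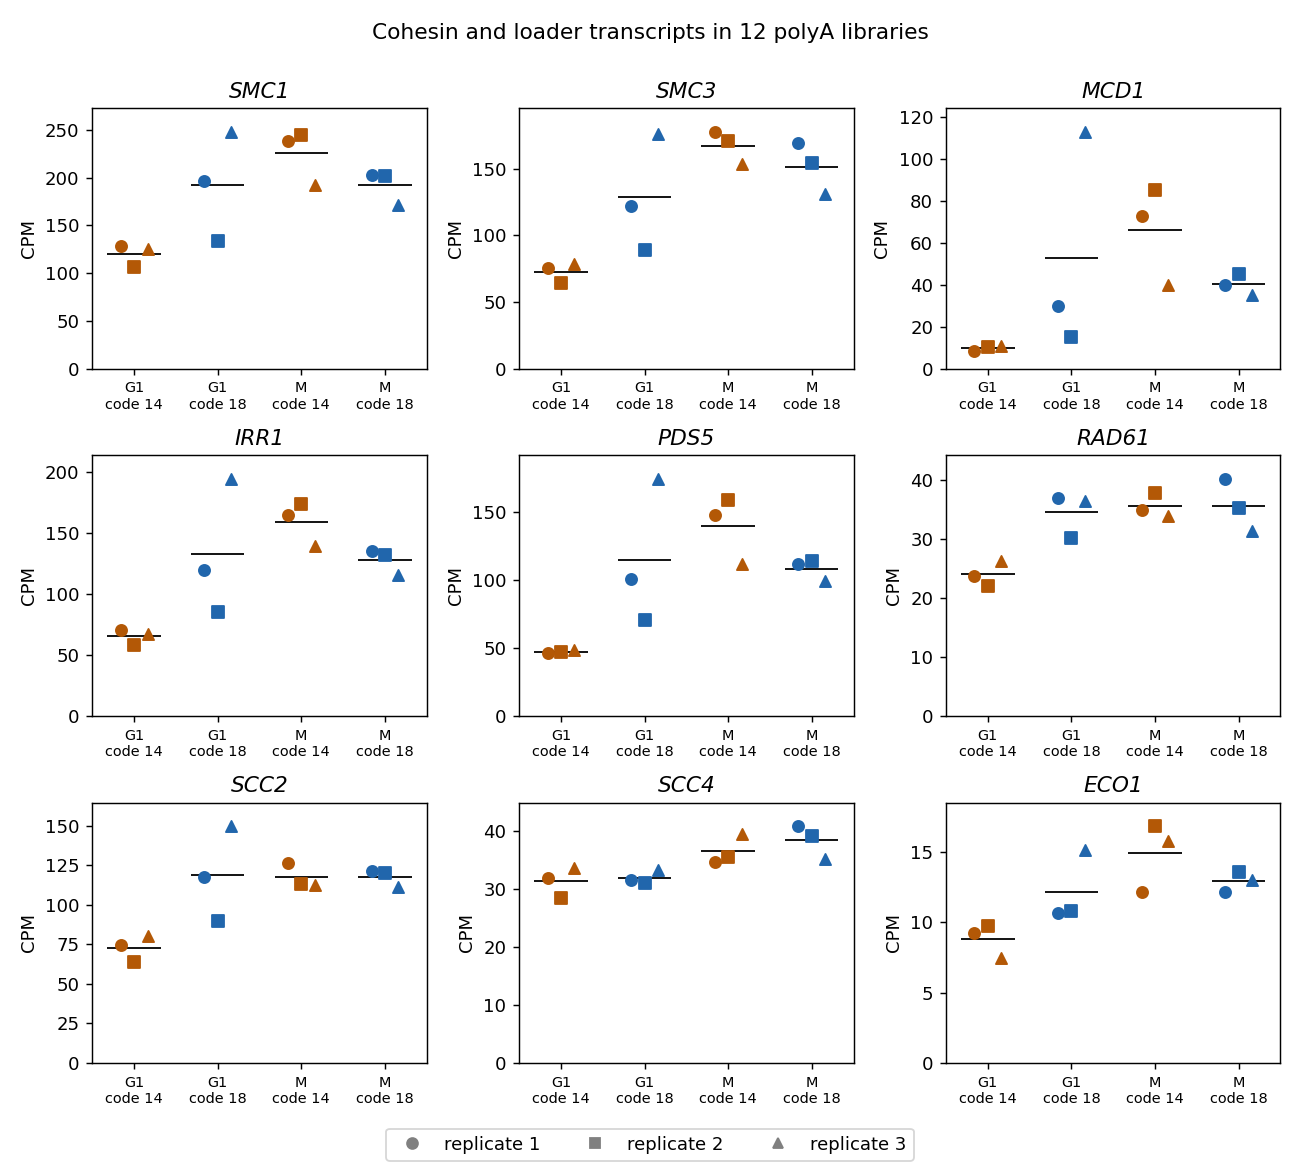
CPM of each member (y axis, from 0) in the 12 polyA libraries, by arrest and code (x axis), with 1 point per library, the symbol giving the replicate number, and a line at the mean of 3. The code 14 libraries rise from G1 to M without overlap for all 9 members, and in code 18 the G1 replicate 3 lies above the M libraries for SMC1, SMC3, MCD1, IRR1, PDS5 and SCC2, while the G1 libraries of SCC4 are close together.

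In code 18 the same comparison gave a call for 1 of the 9 members, with 18.8% of genes called higher. This was SCC4, at 31.6, 31.1 and 33.2 CPM in G1 and 40.8, 39.1 and 35.2 CPM in M (log2 0.26 ± 0.09 SE, adjusted p = 0.0423, edgeR). It was also the only member whose code 18 libraries did not overlap, which was so for 24.7% of genes with M higher. MCD1 measured 29.9, 15.4 and 113 CPM in G1 and 39.9, 45.5 and 35.3 CPM in M. Replicates 1 and 2 in G1 were thus below every M library and replicate 3 above all of them, and the fitted difference was -0.39 ± 0.53 SE (adjusted p = 0.593, edgeR). In PDS5 replicate 3 was again above all M libraries, with 100.4, 70.2 and 174 CPM in G1 and 112, 114 and 99.1 CPM in M (log2 -0.09 ± 0.24 SE, adjusted p = 0.803, edgeR). IRR1 had 119.6, 85.2 and 194 CPM in G1 and 135, 132 and 116 CPM in M (log2 -0.06 ± 0.22 SE, adjusted p = 0.845, edgeR). The differences of SMC1, SMC3, RAD61, SCC2 and ECO1 lay between -0.02 and 0.23 on the log2 scale, and none was called.

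Without G1 code 18 replicate 3, all 9 members had a positive M minus G1 difference in code 18, with a median of 0.29 on the log2 scale. Only 1 of the 9 was then called, with 16% of genes called higher, and it was SMC3 (log2 0.51 ± 0.15 SE, adjusted p = 0.019, edgeR). SCC4 was no longer called (log2 0.29 ± 0.11 SE, adjusted p = 0.0606). MCD1 stood at 0.80 ± 0.31 SE (adjusted p = 0.0695). The call of SCC4 was also lost without either of the other G1 libraries of code 18 or either of M code 18 replicates 1 and 2, where 0 members were called. Averaged over both codes, 9 of the 9 members were called higher in M, with 25.7% of genes called higher, and MCD1 led at 1.17 ± 0.39 SE (adjusted p = 0.0253, edgeR). Its call was lost without any 1 of 4 libraries, namely G1 code 14 replicates 1 and 2, G1 code 18 replicate 1 and M code 14 replicate 2, with differences of 1.12, 1.18, 1.02 and 1.05 and adjusted p between 0.0524 and 0.0559. Without G1 code 18 replicate 3, MCD1 stood at 1.76, and 9 of the 9 were called, with 24.3% of genes called higher. With the code left out of the design, 2 of the 9 were called, and the share of all genes called in that fit is not given here.

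**Figure D3:**
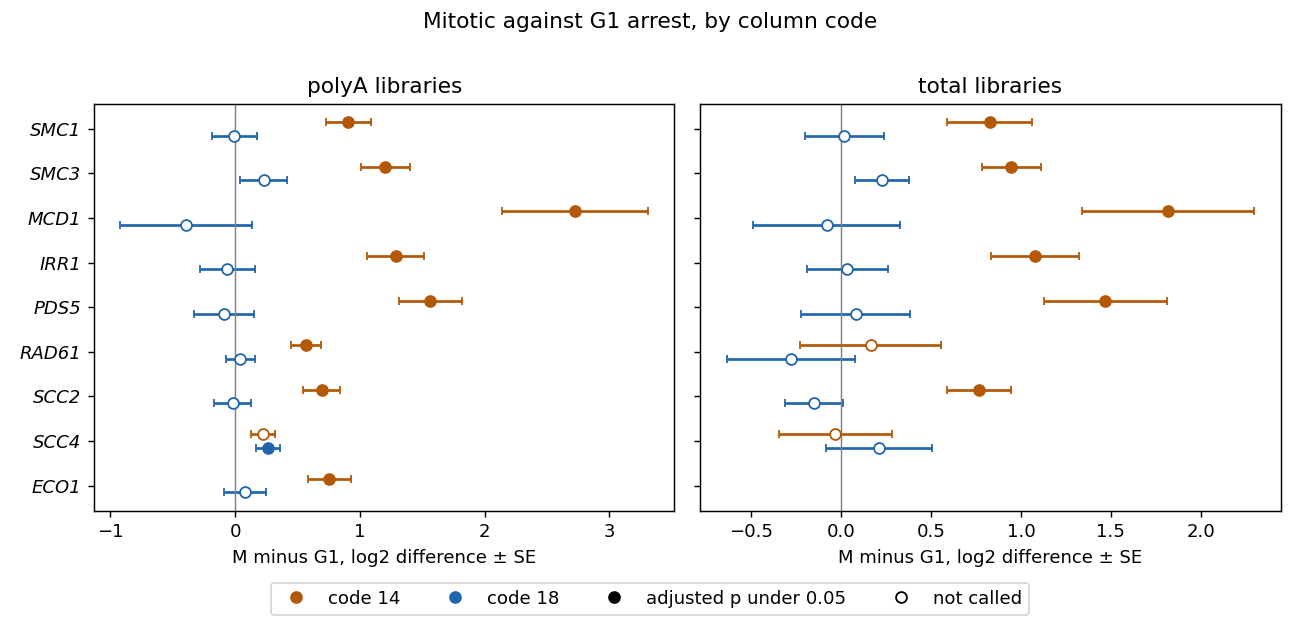
M minus G1 difference of each member on the log2 scale (x axis) with its standard error, in code 14 (orange) and code 18 (blue), for polyA (left) and total RNA libraries (right). Filled points have an adjusted p under 0.05, and ECO1 was not tested in total RNA. Filled orange points mark 8 members with polyA selection and 6 in total RNA, whereas 1 blue point, SCC4 with polyA selection, is filled. The blue points run from -0.394 to 0.264 with polyA selection and from -0.28 to 0.225 in total RNA. That of MCD1 with polyA selection, the lowest, has a standard error of 0.526.

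Whether the arrest difference itself differed between the codes was tested as an interaction. It was called for 3 of the 9 members, MCD1, IRR1 and PDS5, all with a smaller M minus G1 difference in code 18, and 1.32% of genes were called in that direction. MCD1 differed by -3.12 ± 0.79 SE on the log2 scale (adjusted p = 0.0493, edgeR), IRR1 by -1.35 ± 0.31 SE (adjusted p = 0.0372) and PDS5 by -1.66 ± 0.35 SE (adjusted p = 0.0234). The other members ranged from -0.98 (SMC3) to 0.04 (SCC4), and DESeq2 called 6 of the 9. Each culture gave a G1 and an M sample, and with the culture as a block the 3 calls were lost: MCD1 had -2.64 with an adjusted p of 0.102, IRR1 -1.27 with 0.0693 and PDS5 -1.55 with 0.0568. The call of MCD1, close to the threshold, was also lost with RLE size factors (adjusted p = 0.0503), without the filter on low counts (0.0501) and with ribosomal and spike-in rows kept (0.0526). Without G1 code 18 replicate 3, the same 3 members were called, with 0.665% of genes called lower, and the differences were smaller. They were then -1.92 ± 0.42 SE for MCD1 (adjusted p = 0.0358), -0.98 ± 0.19 SE for IRR1 (adjusted p = 0.0218) and -1.23 ± 0.21 SE for PDS5 (adjusted p = 0.0139). The calls of MCD1 and IRR1 were kept without G1 code 18 replicate 2 or 3 or without M code 14 replicate 3, and lost without any other library, with adjusted p up to 0.12 and 0.102. That of PDS5 was lost without any 1 of 5 libraries, G1 code 14 replicates 1 and 2, M code 14 replicate 2 and M code 18 replicates 1 and 3, with an adjusted p of at most 0.0693. The count of members called was 7 without G1 code 18 replicate 2, 4 without M code 14 replicate 3, 1 without G1 code 18 replicate 1, G1 code 14 replicate 3, M code 18 replicate 2 or M code 14 replicate 1, and 0 without any of the other 5. Over the 12 fits that left out 1 library, 93 to 381 genes were called in either direction. Apart from the fit without G1 code 18 replicate 3, the share of all genes called lower in each fit is not given.

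Within G1, cohesin transcripts were higher in code 18 than in code 14. This held for 7 of the 9 members with polyA selection, where 7.53% of genes were called higher. For 8 of the 9, all but SCC4, the 3 libraries of code 18 lay above the 3 of code 14, which was so for 16% of genes. MCD1 was again foremost, with 29.9, 15.4 and 113 CPM against 8.63, 10.3 and 11.1 CPM, a fitted 5.27-fold difference (log2 2.40 ± 0.58 SE, adjusted p = 0.0152, edgeR). PDS5 was 2.44-fold higher (log2 1.29 ± 0.25 SE, adjusted p = 0.00473) and IRR1 2.04-fold (log2 1.03 ± 0.22 SE, adjusted p = 0.00899). SMC3 differed by 0.83 ± 0.19 SE on the log2 scale (adjusted p = 0.012), SCC2 by 0.71 ± 0.15 SE (adjusted p = 0.00699), SMC1 by 0.68 ± 0.18 SE (adjusted p = 0.0225) and RAD61 by 0.53 ± 0.12 SE (adjusted p = 0.0102). ECO1 was not called at 0.46 ± 0.17 SE (adjusted p = 0.0963), and SCC4 differed by 0.03 ± 0.09 SE (adjusted p = 0.861). Of the late G1 genes, 7 of 8 were called higher in code 18, beside the 7.53% of all genes, with a median difference of 1.18 on the log2 scale. Leaving out G1 code 18 replicate 3 gave 5 of 8 calls, with 4.18% of genes called, and the median was 0.67. Of the 4 pheromone-induced genes, 2, FUS1 and FIG1, were called lower with all libraries, beside 8.33% of all genes. Without G1 code 18 replicate 3, 2 of the 4 were called lower, with 5.68% of genes called lower. The part of the late G1 and pheromone-induced genes in the members' difference was not tested.

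**Figure D4:**
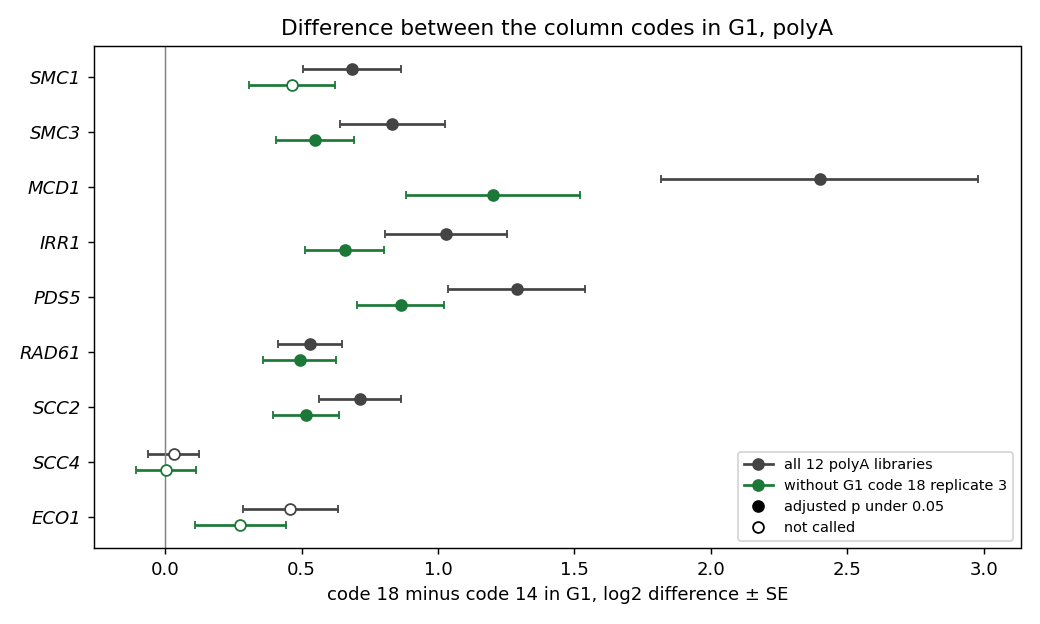
Code 18 minus code 14 difference in G1 on the log2 scale (x axis) with its standard error for each member, polyA libraries. Grey points use all 12 libraries and green points leave out G1 code 18 replicate 3; filled points have an adjusted p under 0.05. MCD1 moves from 2.40 to 1.20, RAD61 moves from 0.53 to 0.49, and SMC1 loses its call.

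Leaving out G1 code 18 replicate 3 lowered the difference of MCD1 in G1. It went from 2.40 to 1.20 ± 0.32 SE, or 2.30-fold (adjusted p = 0.0356, edgeR), which can be seen in the plot of G1 differences with and without this library. 6 of the 9 members were then called, with 4.18% of genes called higher. SMC1 was the one lost (log2 0.47 ± 0.16 SE, adjusted p = 0.0903). PDS5 stood at 0.86 ± 0.16 SE and IRR1 at 0.66 ± 0.14 SE, while RAD61, at 0.49 ± 0.13 SE, was close to its value with all libraries. PDS5, IRR1 and SCC2 were called in each of the 12 fits that left out 1 library. In these fits, 578 to 979 genes were called in either direction. Apart from the fit without G1 code 18 replicate 3, the share of all genes called higher in each fit is not given. Without G1 code 14 replicate 2, 3 of the 9 members were called, the calls of MCD1 (2.42, adjusted p = 0.0593), SMC1 (0.61, adjusted p = 0.0928), SMC3 (0.75, adjusted p = 0.0587) and RAD61 (0.47, adjusted p = 0.0505) being lost. MCD1 was also lost without G1 code 14 replicate 1 (2.31, adjusted p = 0.0611). SMC1 was lost as well without G1 code 18 replicate 1 or G1 code 14 replicates 1 or 3, with adjusted p of 0.0642, 0.0502 and 0.0512.

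In M, no member was called between the codes by the same test. With polyA selection, edgeR called 0 of the 9, at an adjusted and at an unadjusted p under 0.05 alike, and DESeq2 called 0, while 12% of genes were called in either direction. The differences ran from -0.72 ± 0.53 SE for MCD1 (adjusted p = 0.433) to 0.07 ± 0.09 SE for SCC4 (adjusted p = 0.689). SCC2 and RAD61 stood within 0.01 of 0, with standard errors of 0.15 and 0.12. IRR1 was the 1 member whose code 18 libraries, 135, 132 and 116 CPM, all lay below those of code 14, 165, 173 and 139 CPM, as did those of 16.6% of genes.

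Total RNA libraries were compared in the same way, with far fewer counts. 8 of the 9 members passed the filter on low counts. ECO1, with 0 to 10 counts per library, did not. In code 14, 6 of the 8 were called higher in M, with 8.99% of the 4960 genes tested called higher, and the same 6 did not overlap, as was so for 16% of genes. MCD1 had 12.4, 10.2 and 11.3 CPM in G1 and 36.8, 49.9 and 32.9 CPM in M, from 7 or 8 counts per G1 library and 21 to 36 per M library. It differed 3.53-fold (log2 1.82 ± 0.48 SE, adjusted p = 0.0139, edgeR). PDS5 rose 2.77-fold (log2 1.47 ± 0.34 SE, adjusted p = 0.00613), IRR1 2.11-fold (log2 1.08 ± 0.25 SE, adjusted p = 0.00523), SMC3 1.93-fold (log2 0.95 ± 0.16 SE, adjusted p = 0.000539), SMC1 1.77-fold (log2 0.83 ± 0.24 SE, adjusted p = 0.022) and SCC2 1.70-fold (log2 0.77 ± 0.18 SE, adjusted p = 0.00585). RAD61 and SCC4 were not called, at 0.16 ± 0.39 SE and -0.03 ± 0.32 SE. The count fell to 4 without G1 or M code 14 replicate 2. MCD1 (adjusted p = 0.0544 and 0.0641) and SMC1 (0.0974 and 0.121) lost their calls there. SMC1 was also lost without G1 code 14 replicate 1 (0.0709). The share of all genes called in these fits is not given.

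For code 18 in total RNA, 0 of the 8 members were called, with 7.04% of genes called higher. edgeR also gave 0 at an unadjusted p under 0.05, and DESeq2 called 0. The median difference of the 8 was 0.02 on the log2 scale. Without G1 code 18 replicate 3 it was 0.42, with 7 of the 8 positive and MCD1 the highest at 0.94. Again edgeR called 0, with 6.39% of genes called higher, and SMC3 and MCD1 had an unadjusted p under 0.05 (adjusted p = 0.0517 and 0.0744). MCD1 had 14.4, 13.6 and 55.2 CPM in G1, the last in replicate 3, and 28.7, 22.2 and 29.1 CPM in M, so the layout of its polyA libraries was seen again. Over both codes, 3 of the 8, SMC3, IRR1 and PDS5, were called higher in M, with 12.1% of genes called higher. Without G1 code 18 replicate 3 it was 6 of the 8, with 11.7% of genes called higher. MCD1 was then at 1.38 ± 0.22 SE (adjusted p = 0.00018) where all libraries gave 0.87 ± 0.32 SE (adjusted p = 0.0579). With the culture as a block, MCD1 was called, at 0.93 with an adjusted p of 0.0229. The count was 5 without M code 14 replicate 3 and 1 without G1 code 14 replicate 2. In the fits that left out 1 library, 993 to 1126 genes were called in either direction. IRR1 was lost without G1 code 14 replicate 2 or 3 or M code 18 replicate 1, and PDS5 without G1 code 14 replicate 1 or 2 or M code 14 replicate 2, with adjusted p between 0.0513 and 0.0692.

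Between the codes in G1, SMC3 and SCC2 were called in total RNA, 2 of the 8, with 4.54% of genes called higher. SCC2 had 65.2, 74.0 and 74.8 CPM in code 14 and 116, 103 and 154 CPM in code 18 (log2 0.80 ± 0.17 SE, adjusted p = 0.00561, edgeR). It was called also without G1 code 18 replicate 3 (log2 0.61 ± 0.17 SE, adjusted p = 0.0404), as 1 of the 8 with 2.81% of genes called higher. SMC3 was not (log2 0.61 ± 0.16 SE with all libraries, 0.40 ± 0.15 SE and adjusted p = 0.181 without it). SMC3 was also lost without G1 code 14 replicate 1 or 2, with adjusted p of 0.103 and 0.0808, and by DESeq2 (adjusted p = 0.0737), which called PDS5 in its place (1.04, adjusted p = 0.0401). MCD1 dropped from 1.32 ± 0.49 SE to 0.31 ± 0.38 SE without that library and was called in neither case. MCD1, SCC2 and SMC3 did not overlap between the codes, as did 11.4% of genes not with code 18 higher. The number of members called was 5 without G1 code 18 replicate 2, and 1 without G1 code 14 replicate 2. In the fits that left out 1 library, 281 to 473 genes were called in either direction.

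In M total RNA, 0 of the 8 members were called between the codes (edgeR, 0 at an unadjusted p under 0.05, 0 by DESeq2), with 3.73% of genes called. MCD1 was the one member whose libraries did not overlap there, all of code 18 being lower, as for 10.5% of genes. The interaction was called for SCC2 alone, 1 of the 8, with 1.35% of genes called lower. Its difference was -0.92 ± 0.24 SE (adjusted p = 0.0475, edgeR), which became -0.90 with an adjusted p of 0.0553 with the culture as a block and was not called with ribosomal and spike-in rows kept (adjusted p = 0.0516). It lost its call without any 1 of 10 of the 12 libraries, with adjusted p up to 0.154, and kept it only without G1 code 18 replicate 2, where IRR1 and PDS5 were called as well, or M code 14 replicate 3. DESeq2 gave no adjusted p for the members in this contrast. No member's arrest difference was called between total RNA and polyA libraries: edgeR called 0 of the 9 and gave 0 at an unadjusted p under 0.05, DESeq2 called 0 of the 5 it gave an adjusted p, and 0.188% of genes were called.

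Levels can be compared between genes per kilobase of coding length. In the 3 G1 polyA libraries of code 14, SMC1 stood highest at 32.7 ± 3.2 CPM per kb (SD, n = 3). SMC3 followed at 19.7 ± 2.1 and IRR1 at 18.9 ± 1.8 CPM per kb, a gap smaller than either SD. All genes were measured in the same libraries, so these SDs do not test a difference between genes. SCC4 at 16.7 ± 1.4 and SCC2 at 16.2 ± 1.8 CPM per kb, the partners in the loader, also had a gap smaller than either SD. RAD61 at 12.4 ± 1.1 and PDS5 at 12.3 ± 0.4 CPM per kb formed the next pair, followed by ECO1 at 10.4 ± 1.4 CPM per kb. MCD1 was last at 5.87 ± 0.73 CPM per kb.

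In the 3 M polyA libraries of code 14, MCD1 stood higher in this order. SMC1 was at 61.2 ± 7.85 CPM per kb (SD, n = 3), IRR1 at 46.0 ± 5.19 and SMC3 at 45.3 ± 3.35 CPM per kb. MCD1 at 38.85 ± 13.8 CPM per kb was within its own spread of PDS5 at 36.35 ± 6.37 and of SCC2 at 26.2 ± 1.76 CPM per kb. SCC4 at 19.5 ± 1.39, RAD61 at 18.3 ± 1.05 and ECO1 at 17.7 ± 2.88 CPM per kb came last. With both codes, MCD1 had 18.4 ± 23.9 CPM per kb over the 6 G1 libraries, which is no longer last, and 31.3 ± 12.2 over the 6 M libraries. SCC4 had the narrowest range of all members over the G1 libraries, 15.2 to 17.9 CPM per kb, and MCD1 the widest, 5.07 to 66.4 CPM per kb.

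The genes whose pattern was most like that of MCD1 were sought over 8 means of log2 CPM (2 arrests, 2 codes and 2 library types, centred within each library type) among 4888 genes. YOX1, which encodes a homeodomain repressor, was nearest at a distance of 0.64, followed by SPT21 at 0.69, CDC21 (thymidylate synthase) at 0.79, CHA1 (a catabolic serine and threonine deaminase) at 0.82 and the member PDS5 at 0.82. Their M minus G1 differences in code 14 polyA libraries were 2.67, 1.93, 1.68, 1.899 and 1.57 on the log2 scale. In code 18 they were -0.93, 0.17, 0.28, 0.40 and -0.09. The likeness is a description over means that share libraries. These means include G1 code 18 replicate 3, and the search is given only with that library.

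Other genes of the pathway were taken as lists. Of 10 genes that act in cohesion establishment at the replication fork, 6 were called higher in M in code 14 polyA libraries and 1 in code 18, beside 19.1% and 18.8% of all genes. The code 18 count became 4 of 10 without G1 code 18 replicate 3, with 16% of genes called higher. The leading one was TOF1, a fork protection factor, with 1.73 in code 14 and 0.71 in code 18 on the log2 scale. CTF4 (a polymerase and helicase adaptor) had 0.93 and 0.36, ELG1 (an unloader of the PCNA clamp) 0.84 and 0.30, and CTF18 (part of an alternative clamp loader) 1.096 and 0.04. TOF1 was the only one of these 4 called in code 18, in 7 of the 12 fits that left out 1 library. CTF18 and MRC1 were called in the interaction, at -1.06 and -0.90, each in 3 of those 12 fits, with 1.32% of genes called in that direction. Without G1 code 18 replicate 3, 0 of the 10 were called in the interaction by edgeR, with adjusted p of 0.0715 for CTF18 and 0.0513 for MRC1 (unadjusted 0.00221 and 0.00131). Of 6 genes of cohesin cleavage, protection and deacetylation, 2 were called higher and 1 lower in code 14, and 1 higher and 3 lower in code 18. Of all genes, 19.1% were called higher and 17.2% lower in code 14, and 18.8% in each direction in code 18. The code 18 count was 1 higher and 2 lower without G1 code 18 replicate 3, with 16% of genes called higher and 15.6% lower. The polo kinase gene CDC5 rose in both codes, by 2.00 and 1.93 on the log2 scale. The securin gene PDS1 measured -0.21 in code 14, which was not called, and -1.99 in code 18, which was, with an interaction of -1.78 (adjusted p = 0.0229, edgeR) that was called in 5 of the 12 fits. RTS1, a regulatory subunit of protein phosphatase 2A, was called lower in both, at -0.41 and -0.34.

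Condensin and the Smc5/6 complex are the other SMC complexes. Of 5 condensin genes, 4 were called higher in M in code 14, and 2 higher and 1 lower in code 18, beside 19.1% called higher in code 14 and 18.8% in each direction in code 18. The lower call, that of YCG1, was lost without G1 code 18 replicate 3 (adjusted p = 0.0734). BRN1, the kleisin of condensin, had 1.20 and 0.62 on the log2 scale, YCS4 1.04 and 0.60, and SMC4 0.59 and 0.24, the last not called. YCG1 had -0.13, which was not called, and -0.35, which was, in 8 of the 12 fits. Of 8 Smc5/6 genes, 2 were called higher in code 14, and 0 higher and 1 lower in code 18, with the same shares of all genes. Without G1 code 18 replicate 3 the code 18 count was 2 higher, NSE4 and SMC5, and 0 lower, with 16% of genes called higher and 15.6% lower. NSE4, the kleisin of that complex, had 1.53 in code 14 and 0.29 in code 18, with an interaction of -1.23 (adjusted p = 0.0271, edgeR) that was called in 6 of the 12 fits. SMC5 had 0.72 and 0.28, and KRE29 was at -0.35 and -0.21, called in neither code but lower in the average of both. The meiotic kleisin REC8 was not called in either code, but its level was low, at 1.97 to 5.64 CPM in the polyA libraries. Its standard errors were 0.385 in code 14 and 0.379 in code 18 on the log2 scale. The median M minus G1 difference in code 14 was 0.78 for the establishment genes, 0.59 for condensin, 0.09 for Smc5/6 and 0.06 for the cleavage genes, beside 0.91 for cohesin and its loader.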

How the data were processed

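RNA-Seq reads (76 bp, single-end, strand-specific) came from 24 libraries. Per the study's methods and the submitters' processing notes, the authors trimmed adapters with cutadapt 1.9.1, aligned with STAR 2.5.2a to Ensembl R64-1-1 with ERCC spike-in sequences appended, and counted per gene with RSEM 1.3.0, taking strand into account. RSEM assigns reads with several possible origins by expectation, in fractions. The deposited expected counts, of which 93.4% were whole, were rounded to whole numbers. 24 further columns of per-sample values were not used. Features were named through the RefSeq gene table of assembly R64, in which 6048 of 7218 matched, including all members.

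As in the study, 92 ERCC rows and 16 ribosomal RNA rows were left out and polyA and total libraries were fitted separately. Ribosomal rows took 2.24 to 10.5% of polyA counts and 95.5 to 96% of total RNA counts, leaving 9644012 to 21666220 and 564083 to 929948 counts per library, so small differences were less detectable in total RNA. Counts were TMM-scaled, filtered with filterByExpr and fitted with edgeR 4.0.16 (R 4.3.3), quasi-likelihood, two-sided, with 1 mean for each arrest and code, after the study's phase by treatment design. p-values were adjusted by Benjamini-Hochberg over all 5832 (polyA) or 4960 (total) genes tested, at 0.05. Standard errors were computed from the log2 difference and the F statistic. Arrest by library type was tested over all 24 libraries.

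Columns were matched by name to an arrest and a library type. The code 14 or 18 in the header appears in no label, so it was a factor of the fit without a strain name. The labels call the replicates biological. 0 pairs of columns were identical. G1 and M libraries of the same code and number come from the same culture by the series' design. Deviations from the group means correlated at -0.201 to 0.513 across genes in these pairs with polyA selection (3 of 6 over 0.1) and at 0.02 to 0.097 in total RNA. Between the polyA and the total library of the same RNA, they correlated at -0.044 to 0.313 (9 of 12 over 0.1). The main fit of arrest by library type had no block for this. The fit with the culture as a block was an alternative, as were DESeq2 1.42.0, RLE size factors, no filter, ribosomal and spike-in rows kept, arrest without the code, and leaving out each library. For differences between the codes the block was the replicate number, since a culture has 1 code. For arrest by library type it was the RNA sample. Contrasts within 1 code, the late G1 list and the same alternatives for these contrasts were added after seeing the data.

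The members and lists were chosen with earlier results of these data known. All 9 members are named, with up to 4 genes per context list by the size of the average M minus G1 polyA difference among those called in it, and the 5 genes nearest to MCD1 by Euclidean distance. MRC1 and REC8 were named outside this rule after their values were seen. Motifs were searched in the 500 bases before each start codon of the RefSeq R64 genome. The fit was tested on simulated data for the M against G1 comparison: of 50 genes each changed 1.5-, 2-, 4- and 8-fold, 88, 94, 98 and 98% were recovered with polyA depth (5788 genes) and 46, 82, 98 and 98% with total RNA depth (4881 genes).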

Additional observations from a re-analysis of the deposited data

Results flagged for a closer look

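MCD1 in G1 polyA libraries was set apart by 1 library: code 18 replicate 3 had 113 CPM and the other 5 had 8.63 to 29.9 CPM. The same culture gave 55.2 CPM for MCD1 in G1 total RNA, where the others had 10.2 to 14.4 CPM, and 195 CPM for SMC1, where the others had 76.9 to 112 CPM. These were 3 of 34 groups of 6 libraries checked with Dixon's test, which flags about 1 group in 20 by chance where all 6 vary alike. Each group held both codes, so this rate may not hold, and the 3 flags came from 1 culture. In the fit without a block, the M minus G1 difference was called smaller in code 18 than in code 14, by a test of the difference itself, for MCD1 (-3.118 on the log2 scale), IRR1 (-1.35) and PDS5 (-1.656) with polyA selection and for SCC2 (-0.921) in total RNA, where 1.32% and 1.35% of genes were called in that direction. With the culture as a block none of the 4 was called, with adjusted p of 0.102, 0.0693, 0.0568 and 0.0553.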

How the results depend on the processing

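Of the fits that left out no library, DESeq2 called 498 genes (main 217) and 6 members (main 3) in arrest by code with polyA selection, and 24 genes in arrest by library type (main 11). Without the filter on low counts, 5 members were called in M against G1 (main 3) and 4 between the codes in G1 (main 2), both in total RNA. With ribosomal and spike-in rows kept, 0 members were called in arrest by code in total RNA (main 1). With the arrest alone in the design, 2 members were called in M against G1 with polyA selection (main 9) and 1 in total RNA (main 3). Within code 14, total RNA gave 6 members, RAD61 at 0.163 (mean of codes -0.058) and SCC4 at -0.032 (0.09). Within code 18, polyA libraries gave 1 member, with SMC1 at -0.006, MCD1 at -0.394, IRR1 at -0.064, PDS5 at -0.09 and SCC2 at -0.021, where the mean of codes was positive. Total RNA of code 18 gave 0 members and 704 genes (main 1178), with MCD1 at -0.081 and SCC2 at -0.153. With each RNA sample as a block, 23 genes were called in arrest by library type. With the culture as a block, 0 members were called in arrest by code with polyA selection and 0 in total RNA. The differences of code 18 polyA libraries then turned positive for SMC1 (0.031), MCD1 (0.05), IRR1 (0.011), PDS5 (0.003) and SCC2 (0.006). A culture has 1 code only, so differences between the codes were instead fitted with the replicate number as a block. Blocking changed no other member's call than these interaction calls and that of MCD1 in M against G1 in total RNA. Differences near 0 changed sign in uncalled contrasts. SCC2 between the codes in M polyA libraries was 0.013 (DESeq2), 0.011 (RLE), 0.026 (no filter), 0.019 (ribosomal rows kept) and 0.002 (number as block), and RAD61 there was -0.005 (number as block). SMC1 in code 18 polyA libraries was 0.017 without the filter and 0.002 with ribosomal rows kept, and SCC2 there was 0.002 without the filter. The cause of these shifts was not tested.

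Fits that left out 1 library pooled the spread over all groups, so a group left with fewer libraries was taken to vary like the others. Genes called ranged from 93 to 381 in arrest by code with polyA selection and from 49 to 232 in total RNA (main 130), and from 6 to 11 in arrest by library type. Between the codes they ranged from 578 to 979 in G1 polyA (main 925), 281 to 473 in G1 total (main 427), 349 to 711 in M polyA (main 697) and 112 to 216 in M total (main 185). Members called ranged from 0 to 1 in code 18 polyA, 4 to 6 in code 14 total, 1 to 6 in M against G1 total, 0 to 7 and 0 to 3 in arrest by code polyA and total, and 3 to 7 and 1 to 5 between the codes in G1 polyA and total. For most of these fits the share of all genes called is not given. Member differences given above that changed direction without some library were, in code 18 polyA, ECO1 (-0.015 to 0.266), IRR1 (-0.295 to 0.309), MCD1 (-0.815 to 0.803), PDS5 (-0.338 to 0.335), RAD61 (-0.058 to 0.125), SCC2 (-0.183 to 0.176) and SMC1 (-0.206 to 0.214). In total RNA they were RAD61 (-0.013 to 0.295) and SCC4 (-0.127 to 0.166) in code 14 and RAD61 (-0.175 to 0.101) and SCC4 (-0.022 to 0.223) over both codes. The rest were RAD61 (-0.096 to 0.087) and SCC2 (-0.029 to 0.058) between the codes in M polyA, SCC4 in arrest by code polyA (-0.006 to 0.108), and SCC4 between the codes in G1 polyA (-0.036 to 0.064) and total (-0.321 to 0.128). Among the other genes named, uncalled differences that changed direction with polyA selection were PDS1 in code 14 (-0.496 to 0.052), CTF18 in code 18 (-0.161 to 0.271) and REC8 in code 14 (-0.221 to 0.372) and code 18 (-0.056 to 0.606).

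Libraries of code 14 and code 18 share only a number. Their deviations correlated at -0.017 to 0.263 with polyA selection (3 of 6 pairs over 0.1) and at -0.05 to 0.134 in total RNA (2 of 6). Depth limits total RNA most, since ECO1 could not be tested there and small differences in MCD1 rest on few counts.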
